A study of Mus musculus with 6 samples.

Results

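G protein coupled receptors of the islet were followed in mice that lack Tead1 in their beta cells. The set holds 35 receptors chosen by name, and 30 of them were read by a probe set with that single gene symbol, out of 18193 genes measured in the same way. Adra2a, Adora1, Ffar1, Ffar3 and Gpr119 had no such probe set and were not analysed here. Islets came from male C57Bl6 mice aged 12 weeks. The Tead1KO group (3 arrays) carried the beta cell-specific Tead1 knockout, and the Flox group (3 arrays) carried the floxed allele and served as the control. The labels give no Cre line for either group, so Cre itself and the loss of Tead1 cannot be told apart, and although they speak of 3 mice per group, they do not tie an array to a mouse. Should arrays of a group share a source, the p-values would measure technical spread alone.

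These receptors span the cell membrane and pass a signal from a hormone, transmitter or metabolite to a G protein inside the cell. In beta cells, receptors coupled to the stimulatory protein Gs raise cyclic AMP and strengthen insulin release when glucose is high. Receptors coupled to Gi or Go lower cyclic AMP and restrain release, and those coupled to Gq act through phospholipase C, inositol trisphosphate, calcium and protein kinase C. Some receptors couple to more than 1 of these proteins, and each was placed under 1 route, except 4 left without an assigned coupling.

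Values are log2 probe set signals, so a difference of 1 is a 2-fold change, and every difference is Tead1KO minus Flox. Each receptor is given by its brightest probe set, averaged over the 6 arrays. Signals of different probe sets are not comparable as transcript amounts, so receptors are compared by their differences and not by their levels. Unspiked bacterial probe sets, which have no target in mouse RNA, read 2.87 to 4.70, and a group mean at or below 4.70 is called within background. The whole islet was measured, so fewer cells of a type and less transcript per cell cannot be told apart. Genes with a limma p under 0.05 after Benjamini-Hochberg adjustment over all 18193 genes were counted as changed.

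The array labelled Tead1KO replicate 3 stood apart from the others. Its hybridization controls averaged 13.23, against 10.60 to 12.09 on the other arrays, its interquartile range was 2.65, against 2.99 to 3.32, and its mean correlation with the other arrays was 0.969, against 0.984 to 0.986. The brighter Tead1 probe set read 6.72, 7.49 and 5.95 in Tead1KO islets, against 7.22, 6.99 and 7.40 in Flox islets (adjusted p = 0.774). A dimmer Tead1 probe set read 5.58, 5.41 and 4.98 in Tead1KO islets, against 6.14, 5.33 and 5.11 in Flox islets, and both overlapped between groups. The labels do not place these probe sets against the deleted exons, so they do not check the deletion. The 8 measured beta cell markers were all above background on average in both groups, with list means of 12.25 to 12.74 in Tead1KO islets and 12.86 to 13.06 in Flox islets. Markers of acinar cells, the enzyme-producing cells around islets, were also bright, with list means of 11.00 to 12.69 in Tead1KO islets and 10.89 to 12.81 in Flox islets.

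Of the 30 receptors, 2 rose in Tead1KO islets and 0 fell. The orphan receptor Gprc5b and the oxytocin receptor Oxtr each rose about 2.35-fold. That is 6.67% of the receptors higher, where 0.335% of all genes were higher and 0.181% lower (0.517% in either direction). At an unadjusted p under 0.05, 5 receptors lay higher and 3 lower, or 26.7% in all, where 3.08% of all genes lay higher and 4.33% lower (7.41% together). The 3 Tead1KO arrays lay wholly above the 3 Flox arrays for 7 receptors and wholly below them for 3, or 33.3% together, where the shares over all genes were 5.80% and 7.27% (13.1% together). The median difference was 0.03 over the receptors and -0.01 over all genes. The receptors were listed with earlier results of these data known, so these shares describe the list and carry no test.

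**Figure D1:**
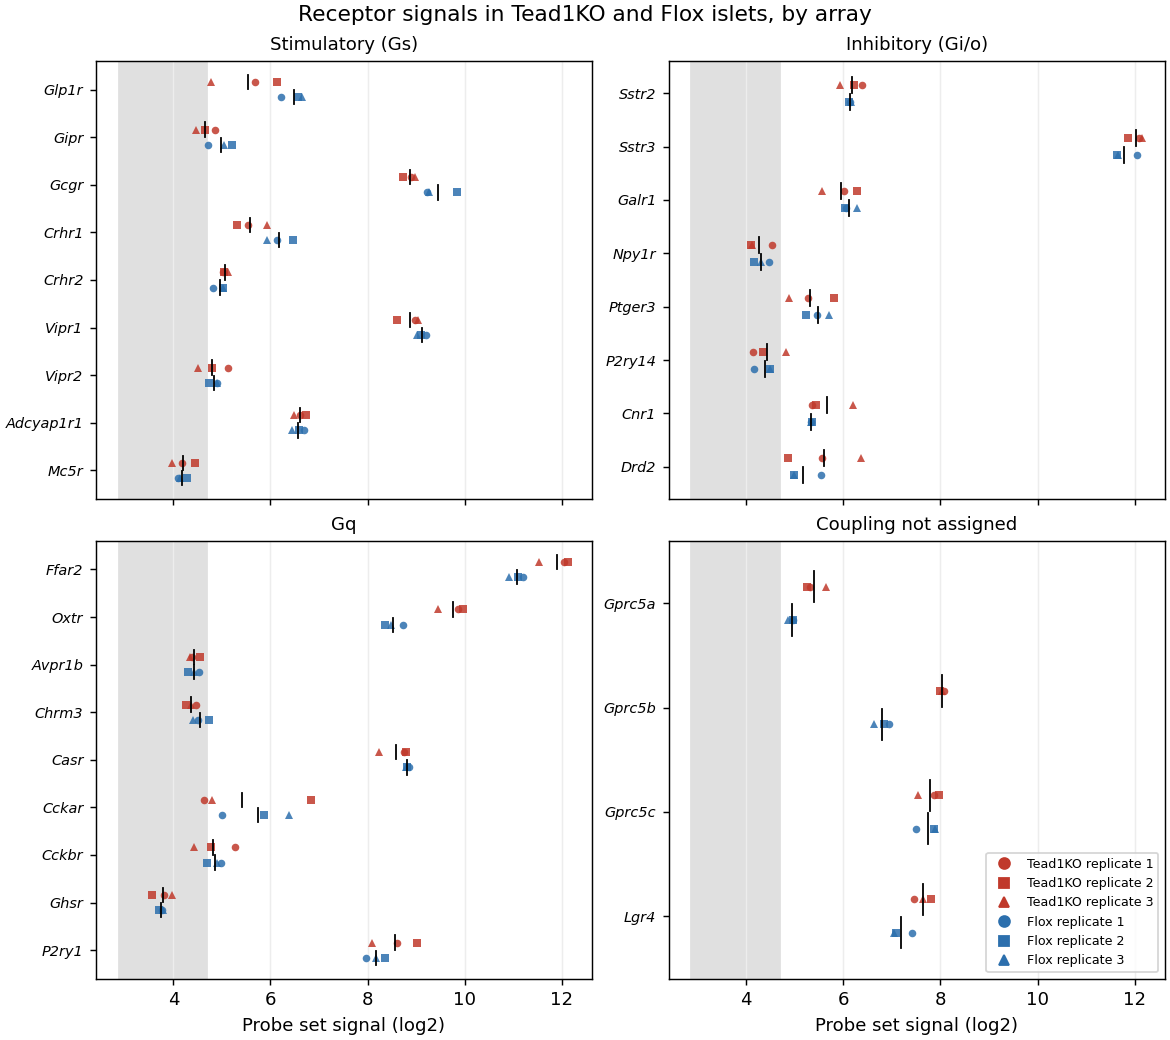
Log2 probe set signal (x axis) of the 30 measured receptors, in 4 panels by coupling; red points above each line are the Tead1KO arrays, blue points below it the Flox arrays, the symbol gives the replicate, black ticks mark means and grey shading spans background, 2.87 to 4.70. Red lies wholly above blue for 7 receptors and wholly below it for 3, with the widest gaps for Gprc5b, Oxtr and Ffar2. Mc5r, Npy1r, P2ry14, Avpr1b, Chrm3 and Ghsr have both group means in the band.

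Of the 4 receptors without an assigned coupling, Gprc5b rose and the others did not pass the test. Gprc5b is a class C orphan receptor of the retinoic acid-inducible group, and it read 8.08, 7.98 and 8.04 in Tead1KO islets, against 6.94, 6.83 and 6.63 in Flox islets. All 3 Tead1KO arrays lay more than 1 unit above the highest Flox array, and they differed less among themselves than the Flox arrays did. The means were 8.03 ± 0.05 in Tead1KO and 6.80 ± 0.16 in Flox (SD, n = 3 each), a difference of 1.23 (SE 0.16, 95% interval 0.87 to 1.60, limma adjusted p = 0.0207). Its dimmer probe set read 7.95, 8.72 and 6.82 in Tead1KO islets, against 6.31, 6.08 and 5.74 in Flox islets, again with no overlap, and differed by 1.79 (adjusted p = 0.348 over all probe sets). The call ended when both probe sets were averaged (difference 1.51, adjusted p = 0.0590). It also ended without Tead1KO replicate 1 (adjusted p = 0.165) and without Flox replicate 1, 2 or 3 (0.0857, 0.159 and 0.199), with differences of 1.15 to 1.30 over the 6 omissions.

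The related Gprc5a read 5.31, 5.25 and 5.65 in Tead1KO islets, against 4.98, 4.97 and 4.86 in Flox islets. Every Tead1KO array was above every Flox array, yet the difference of 0.47 did not pass (SE 0.16, limma adjusted p = 0.461). The third receptor of that group, Gprc5c, had overlapping arrays and a difference of 0.05 with a 95% interval of -0.39 to 0.49. Lgr4, a receptor for R-spondins that supports Wnt signalling, read 7.46, 7.81 and 7.64 in Tead1KO islets, against 7.42, 7.09 and 7.04 in Flox islets. The lowest Tead1KO array and the highest Flox array of Lgr4 were close, and the difference of 0.45 did not pass (95% interval 0.03 to 0.87, adjusted p = 0.629). Of the R-spondin genes, Rspo2 differed by 0.34, Rspo3 by 0.26 and Rspo4 by -0.30, each with overlapping arrays and none past the test, and Rspo1 was within background in both groups.

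Among Gq-coupled receptors, Oxtr rose and Ffar2 lay higher, while the others showed no change past the test. Of the 9 measured, 4 lay above 0 and 5 below, with a median difference of -0.00021. Over all 18193 genes, 8902 lay above 0 and 9291 below, a similar split, and 0.335% rose past the test. Oxtr read 9.87, 9.96 and 9.45 in Tead1KO islets, against 8.72, 8.37 and 8.48 in Flox islets. The groups were separate, and the lowest Oxtr value of the Tead1KO group was on replicate 3. Oxtr averaged 9.76 ± 0.27 in Tead1KO and 8.53 ± 0.18 in Flox islets (SD, n = 3 each), a difference of 1.23 (SE 0.19, 95% interval 0.79 to 1.67, limma adjusted p = 0.0466). A dimmer Oxtr probe set just above background read 5.36, 5.21 and 5.87 in Tead1KO islets, against 5.01, 4.91 and 4.99 in Flox islets, and differed by 0.51 (adjusted p = 0.871 over all probe sets). The call of Oxtr ended with median centring (difference 1.17, adjusted p = 0.135) and when every probe set was tested separately (0.0800). With the replicate number as a block, its limma adjusted p was 0.0536, also short of the threshold. The Oxtr call also ended without Tead1KO replicate 1 (0.271) and without Flox replicate 1, 2 or 3 (0.149, 0.291 and 0.278). Oxytocin's own gene, Oxt, differed by -0.23 (adjusted p = 0.789).

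Ffar2, which senses short-chain fatty acids and also couples to Gi, read 12.05, 12.13 and 11.53 in Tead1KO islets, against 11.21, 11.11 and 10.92 in Flox islets. Here too the groups were separate, with the lowest Tead1KO value on replicate 3. The difference was 0.83, or 1.77-fold (SE 0.19, 95% interval 0.40 to 1.25), and did not pass (limma adjusted p = 0.169). A second Ffar2 probe set read 10.51, 10.46 and 10.04 in Tead1KO islets, against 9.63, 9.26 and 9.11 in Flox islets, a difference of 1.01 in the same direction (adjusted p = 0.198 over all probe sets). Ffar2 passed without Tead1KO replicate 3 (difference 1.01, adjusted p = 0.0204), after quantile normalization (0.96, 0.0245) and after adjustment for the hybridization controls (0.96, 0.0259). Those were the only 3 of 16 other settings in which it passed. Its limma adjusted p was 0.460 with median centring and 0.722 without Flox replicate 3.

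**Figure D2:**
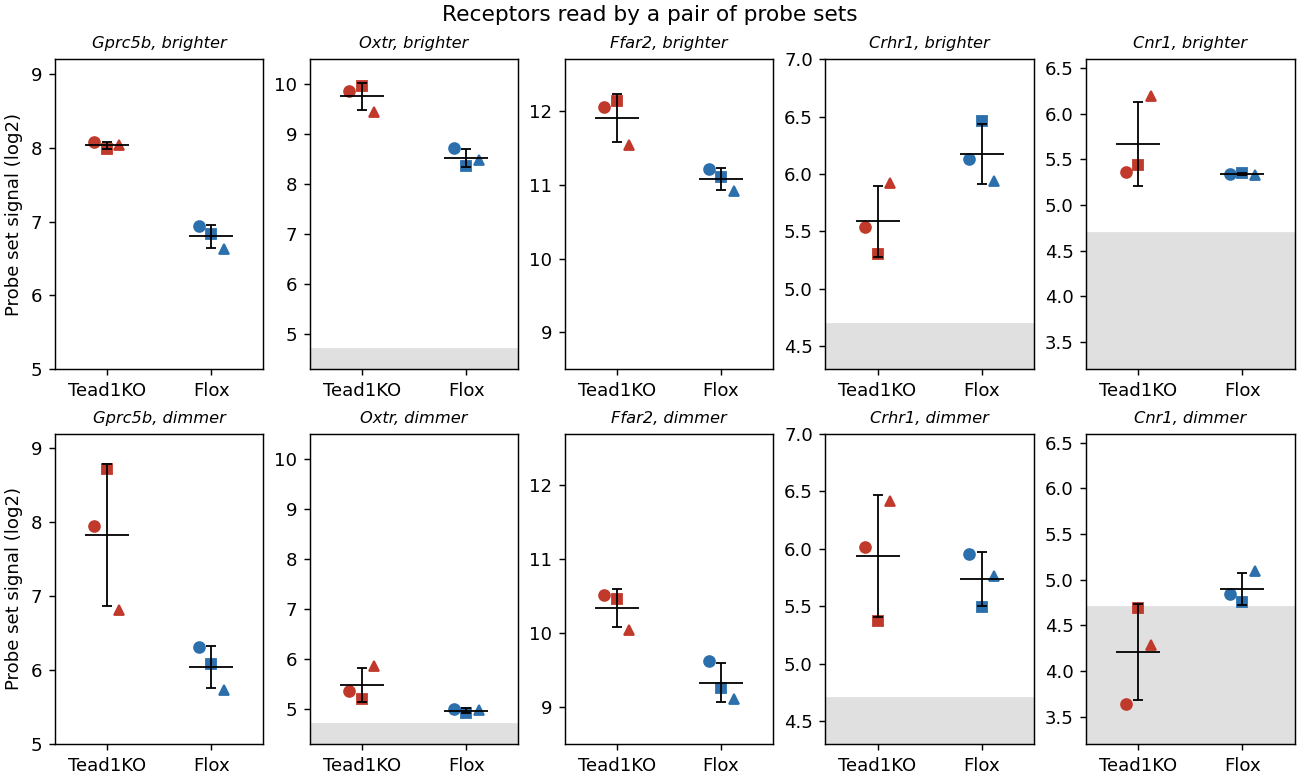
Log2 signal (y axis) of both probe sets of Gprc5b, Oxtr, Ffar2, Crhr1 and Cnr1, the brighter in the upper row and the dimmer in the lower; points are single arrays (red Tead1KO, blue Flox; circle, square and triangle for replicates 1, 2 and 3), bars are mean ± SD (n = 3) and grey marks background. The y axes do not start at 0 and are shared within a column; both probe sets of Gprc5b, Oxtr and Ffar2 are higher in Tead1KO, while those of Crhr1 and Cnr1 move in opposite directions.

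The promoters of both receptors that rose are shown next, with that of Lgr4, the only receptor whose window held the TEAD core motif. Windows of 250 bases before the gene start, from RefSeq on build GRCm38.p6, were at hand for 23 of the 30 receptors. The searched letters were GGAATG, the core that TEAD factors bind, read as CATTCC on the other strand, and TGACGTCA, the cAMP response element, which reads the same on both strands. The motifs overlapped each other in no receptor window. Of 32851 such windows of all genes, 12.6% held the TEAD core and 1.55% the cAMP response element. Among the receptors, Lgr4 held the TEAD core, at 178 and 158 bases before the start, and Sstr2 held the cAMP response element, at 58 bases. No match means only that these letters are not in the window. The lines below run 5′ to 3′ along the gene's strand, with the TEAD core in capitals: Gprc5b at chr7:118995212-118995461 (minus strand), Oxtr at chr6:112489826-112490075 (minus strand) and Lgr4 at chr2:109917397-109917646 (plus strand).
Gprc5b: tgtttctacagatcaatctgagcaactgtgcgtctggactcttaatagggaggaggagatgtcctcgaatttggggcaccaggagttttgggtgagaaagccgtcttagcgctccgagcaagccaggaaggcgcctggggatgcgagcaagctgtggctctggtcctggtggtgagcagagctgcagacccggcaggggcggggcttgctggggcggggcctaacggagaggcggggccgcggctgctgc
Oxtr: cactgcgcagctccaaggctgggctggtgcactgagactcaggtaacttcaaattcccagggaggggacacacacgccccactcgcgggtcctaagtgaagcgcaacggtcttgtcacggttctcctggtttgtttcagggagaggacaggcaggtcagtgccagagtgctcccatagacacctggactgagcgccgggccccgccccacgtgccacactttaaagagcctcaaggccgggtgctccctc
Lgr4: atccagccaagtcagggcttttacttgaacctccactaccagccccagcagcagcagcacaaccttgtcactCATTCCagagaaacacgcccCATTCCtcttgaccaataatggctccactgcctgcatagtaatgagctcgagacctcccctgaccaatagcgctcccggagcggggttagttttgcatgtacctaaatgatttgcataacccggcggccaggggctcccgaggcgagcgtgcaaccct
The share of G and C was 62.4% for Gprc5b, 61.6% for Oxtr and 55.6% for Lgr4.

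P2ry1, which responds to ADP released with insulin granules, differed by 0.40 (95% interval -0.17 to 0.97), and Casr, the calcium-sensing receptor, by -0.22 (-0.65 to 0.22). Single arrays moved both: P2ry1 differed by 0.18 without Tead1KO replicate 2 and 0.64 without Tead1KO replicate 3, and Casr by -0.04 without Tead1KO replicate 3. After adjustment for the hybridization controls, P2ry1 differed by 0.72 and Casr by -0.06, neither past the test. Cckbr, the gastrin and cholecystokinin receptor, differed by -0.03, and its dimmer probe set averaged 4.85 in Tead1KO islets, with its Flox mean within background. Chrm3, the muscarinic receptor for acetylcholine, Avpr1b, the vasopressin receptor, and Ghsr, the ghrelin receptor, were within background in both groups, so a change could not be read there. Cckar, the cholecystokinin receptor that mouse acinar cells carry, varied most between arrays. It read 4.62, 6.83 and 4.80 in Tead1KO islets, against 4.99, 5.87 and 6.38 in Flox islets, with an SD of 1.23 in Tead1KO and 0.70 in Flox. The mean of 8 acinar markers was 11.00, 12.69 and 12.00 on the same Tead1KO arrays and 10.89, 12.48 and 12.81 on the same Flox arrays. Within each group, Cckar and the acinar mean put the 3 arrays in the same order, and the part of acinar cells in the Cckar values was not tested.

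Of the 9 stimulatory receptors, 0 changed past the test, and 3 had an unadjusted p under 0.05, all lower. At that unadjusted threshold, 4.33% of all genes lay lower and 3.08% higher. The median difference of the stimulatory receptors was -0.24, with 6 of 9 below 0, where 9291 of all 18193 genes were below 0. Glp1r, the receptor of the incretin GLP-1, read 5.69, 6.14 and 4.77 in Tead1KO islets, against 6.21, 6.58 and 6.65 in Flox islets. All Tead1KO values were below all Flox values, but replicate 2 was within 0.1 of the lowest Flox array and replicate 3 was far below the rest. The means were 5.53 ± 0.70 in Tead1KO and 6.48 ± 0.24 in Flox islets (SD, n = 3 each), a difference of -0.95 (SE 0.33, 95% interval -1.71 to -0.19) that did not pass (limma adjusted p = 0.506). Glp1r differed by -0.57 without Tead1KO replicate 3, by -1.25 without Tead1KO replicate 2 (adjusted p = 0.0782), and by -0.47 after adjustment for the hybridization controls.

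Gcgr, the glucagon receptor, read 8.89, 8.74 and 8.97 in Tead1KO islets, against 9.23, 9.84 and 9.27 in Flox islets. These groups were separate as well, with Flox replicate 2 the highest array. Gcgr differed by -0.58 (SE 0.20, 95% interval -1.04 to -0.12, limma adjusted p = 0.493). Crhr1, the receptor for corticotropin-releasing hormone, read 5.54, 5.31 and 5.92 in Tead1KO islets, against 6.13, 6.46 and 5.94 in Flox islets, a difference of -0.59 (adjusted p = 0.544). The closest Tead1KO and Flox arrays of Crhr1 were nearly level, and its second probe set differed by 0.20, in the opposite direction.

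Gipr, the receptor of the other incretin, read 4.85, 4.65 and 4.46 in Tead1KO islets, against 4.72, 5.20 and 5.05 in Flox islets. Its Tead1KO mean of 4.65 was within background, so the size of a difference could not be read, and the Flox mean lay 1.22-fold above the background limit. The Gipr arrays overlapped, the 95% interval of -0.74 to 0.07 included no change, and the fit did not call it (limma adjusted p = 0.731). Vipr1, a receptor for VIP and PACAP, differed by -0.24 (95% interval -0.64 to 0.15). Vipr2 differed by -0.03, and Adcyap1r1, the PACAP receptor, by 0.04 (95% interval -0.32 to 0.40). Crhr2, a receptor for urocortins, read 5.03, 5.05 and 5.12 in Tead1KO islets, against 4.83, 5.02 and 5.01 in Flox islets. The Crhr2 groups did not overlap, but the gap was under 0.01 and the difference 0.11 (adjusted p = 0.832). The melanocortin receptor Mc5r was within background in both groups.

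Of the inhibitory receptors, 8 were measured and 0 changed (0 at an unadjusted p under 0.05), with a median difference of 0.04. Over all genes, 0.517% changed and 7.41% had an unadjusted p under 0.05, so 0 of 8 does not set these receptors apart. Sstr3, a somatostatin receptor, read 12.08, 11.86 and 12.15 in Tead1KO islets, against 12.04, 11.64 and 11.67 in Flox islets. The arrays of Sstr3 overlapped, and the difference was 0.25 (95% interval -0.11 to 0.61, limma adjusted p = 0.767), with 0.23 at its dimmer probe set. Sstr2, another somatostatin receptor, differed by 0.04 (95% interval -0.34 to 0.42). Galr1, the galanin receptor, differed by -0.17, and Ptger3, a prostaglandin E2 receptor, by -0.15, both with overlapping arrays.

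Cnr1, the cannabinoid receptor, read 5.36, 5.44 and 6.20 in Tead1KO islets, against 5.34, 5.35 and 5.33 in Flox islets. All Tead1KO arrays of Cnr1 were above the Flox arrays, but only replicate 3 by more than 0.1. The difference was 0.33 (adjusted p = 0.772), and the second Cnr1 probe set was lower on every Tead1KO array, with its Tead1KO mean within background and a Flox mean of 4.90. Drd2, the dopamine receptor, also had its highest value on Tead1KO replicate 3, 6.37, against 5.57 and 4.86 on the other Tead1KO arrays and 4.99 to 5.54 on the Flox arrays. Its difference was 0.43 (95% interval -0.40 to 1.25), and 0.04 without that array. Npy1r, a receptor for neuropeptide Y, and P2ry14, a receptor for UDP sugars, were within background in both groups.

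**Figure D3:**
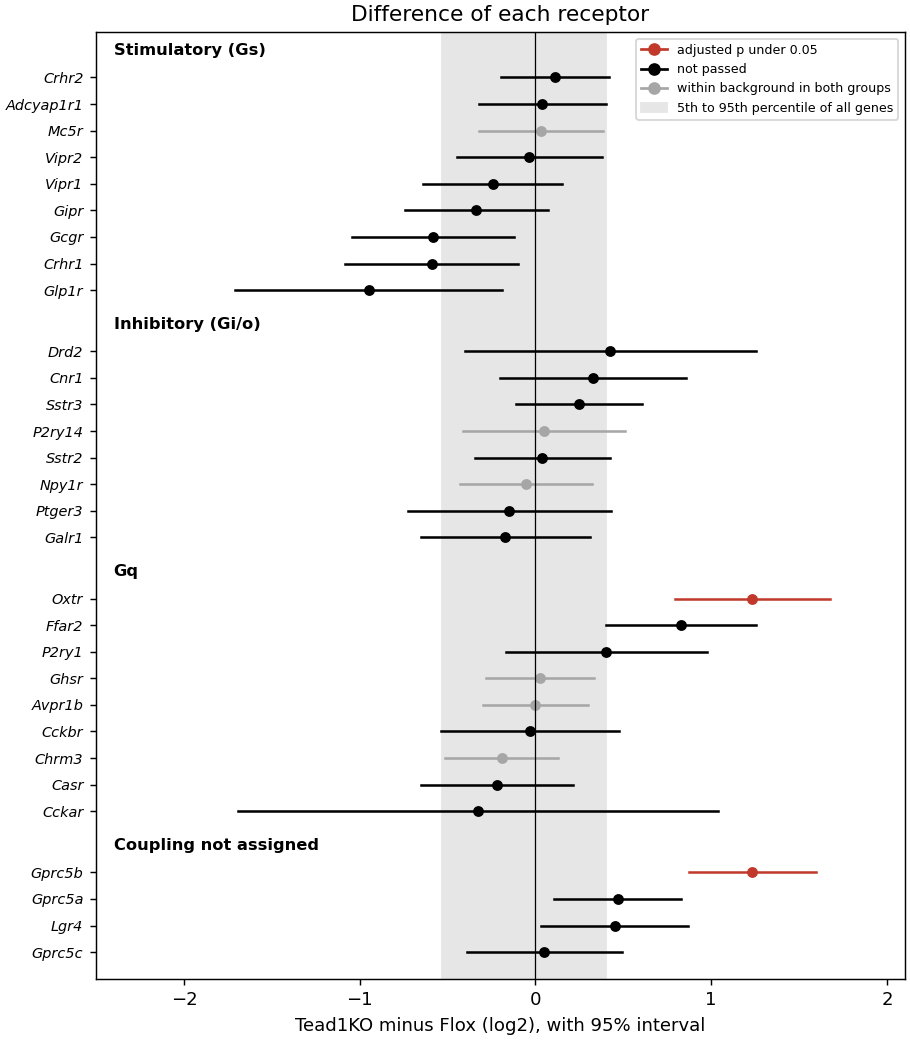
Difference Tead1KO minus Flox (log2, x axis) of each receptor with its 95% interval from limma, grouped by coupling and ordered by size; red passed at an adjusted p under 0.05, black did not, light grey was within background in both groups, and the shaded band holds the 5th to 95th percentile of all genes, -0.53 to 0.40. Oxtr and Gprc5b stand at 1.23 each, and Glp1r at -0.95.

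Averaged over the measured receptors of each coupling and set to 0 at the Flox mean, the stimulatory group read -0.21, -0.25 and -0.39 on the Tead1KO arrays, against -0.08, 0.12 and -0.04 on the Flox arrays. The Gq group read 0.21, 0.44 and -0.08 on the Tead1KO arrays, against -0.04, 0.00 and 0.04 on the Flox arrays, so Tead1KO replicate 3 was below the Flox arrays and the other Tead1KO arrays above them. That average includes Oxtr and Ffar2, and the median of the Gq differences was -0.00021. The inhibitory group read 0.08, 0.03 and 0.16 on the Tead1KO arrays, against 0.06, -0.09 and 0.03 on the Flox arrays, with overlap. The 4 receptors without an assigned coupling read 0.51, 0.59 and 0.55 on the Tead1KO arrays, against 0.04, 0.02 and -0.06 on the Flox arrays. This average includes Gprc5b, which differed by 1.23. The median of the 4 differences was 0.46, and the smallest was 0.05, for Gprc5c.

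Dimmer probe sets offered a second reading for part of the list. There were 18 of them, and 11 were above background in at least 1 group. Of these, 7 differed in the same direction as the brighter probe set and 4 in the opposite one, those of Crhr1, Galr1, Cnr1 and Cckbr.

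Genes around the receptors showed no change past the test. Of 39 measured receptors of the same families (54 listed), 0 changed by limma, with 2 higher and 3 lower at an unadjusted p under 0.05 and a median of 0.01. Over all genes, 3.08% were higher and 4.33% lower at that unadjusted threshold. Adora3, an adenosine receptor, read 6.70, 6.98 and 5.49 in Tead1KO islets, against 7.95, 8.67 and 7.97 in Flox islets. The groups were far apart, with an SD of 0.79 in Tead1KO and 0.41 in Flox, and the difference of -1.81 did not pass (SE 0.39, adjusted p = 0.154). Ptger4, a Gs-coupled prostaglandin E2 receptor, read 7.40, 7.44 and 6.93 in Tead1KO islets, against 6.24, 6.29 and 6.62 in Flox islets, a difference of 0.87 (adjusted p = 0.187). Hcar1, the lactate receptor, was within background in Flox, and its Tead1KO mean of 4.97 lay 1.21-fold above the background limit (limma adjusted p = 0.219).

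Of 25 ligand precursors, 0 changed by limma, with 2 higher and 1 lower at an unadjusted p under 0.05 and a median of 0.07. The shares over all genes were 3.08% higher and 4.33% lower. Ucn3, the urocortin of mature beta cells that acts on Crhr2, read 11.89, 12.09 and 11.71 in Tead1KO islets, against 12.60, 12.95 and 12.99 in Flox islets. The groups were separate, and the difference of -0.95 was just short of the threshold (SE 0.16, adjusted p = 0.0560). Npy, whose receptor Npy1r was within background, read 8.80, 10.65 and 9.61 in Tead1KO islets, against 8.08, 8.36 and 8.04 in Flox islets, a difference of 1.53 (adjusted p = 0.284). Cck was within background in both groups. Glucagon's gene Gcg differed by 0.00 and the somatostatin gene Sst by -0.01.

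Of 30 G protein subunits, 0 changed by limma, with 1 higher and 4 lower at an unadjusted p under 0.05 and a median of -0.10. The shares over all genes were again 3.08% higher and 4.33% lower. Gnat2, a transducin alpha subunit, differed by -0.73 (adjusted p = 0.147), Gna12 by 0.60 (0.237) and Gng4, a gamma subunit, by -0.41 (0.328). Gnas, which encodes Gs alpha, differed by -0.07, and Gnaq, which encodes Gq alpha, by -0.45.

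Of 12 Gq effectors, 0 changed by limma, with 0 higher and 4 lower at an unadjusted p under 0.05 and a median of -0.26. Among all genes, 3.08% lay higher and 4.33% lower at that unadjusted threshold. Prkcb, protein kinase C beta, read 9.48, 10.19 and 9.05 in Tead1KO islets, against 11.12, 11.21 and 11.31 in Flox islets. All Tead1KO arrays were lower by about 1 unit or more, with a difference of -1.64 (SE 0.27, adjusted p = 0.0560). Itpr2, an inositol trisphosphate receptor, read 6.35, 6.64 and 5.34 in Tead1KO islets, against 7.74, 7.61 and 7.67 in Flox islets, a difference of -1.56 (adjusted p = 0.119). Itpr3 differed by -0.68 (0.436). The lowest value of Prkcb and of Itpr2 was on Tead1KO replicate 3. Of the 12, 9 lay below 0 and 3 above it, Plcb1 (0.16), Plcb3 (0.10) and Prkcd (0.03).

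**Figure D4:**
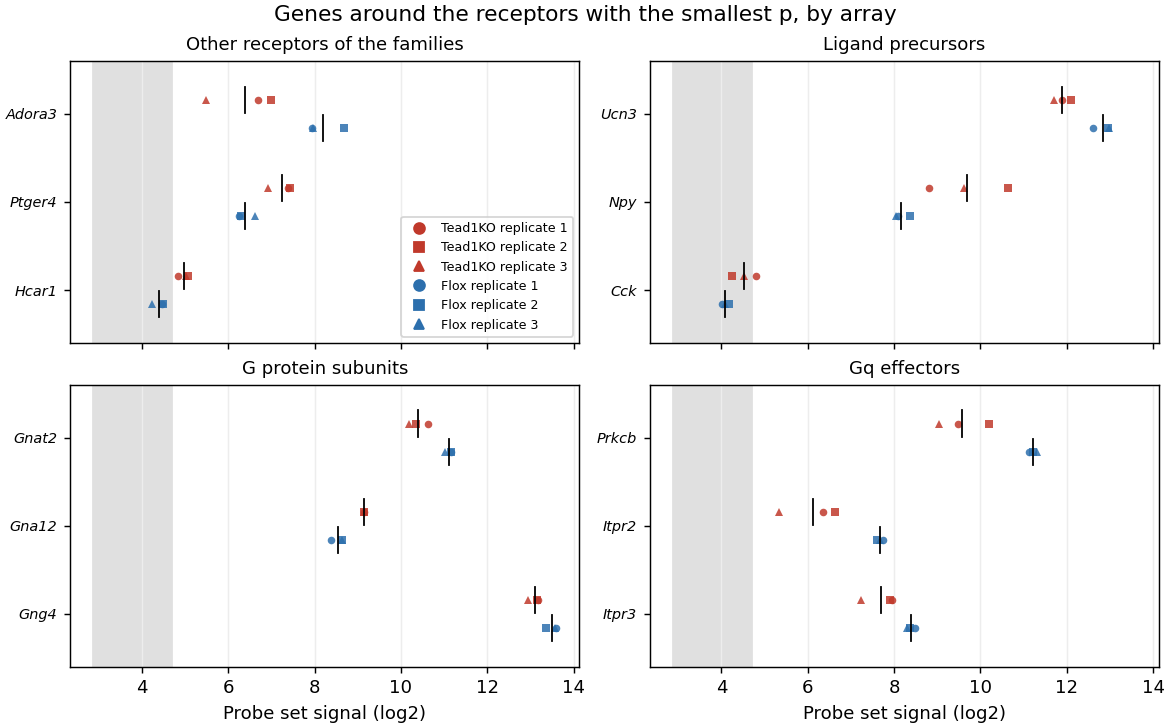
Log2 signal (x axis) of the 3 genes with the smallest p in each of 4 lists around the receptors; red points above each line are Tead1KO arrays, blue points below it Flox arrays, the symbol gives the replicate, ticks are means and the grey band is background. Adora3, Ucn3, Prkcb and Itpr2 lie lower in Tead1KO and Ptger4 and Npy higher, each without overlap and none past the test.

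Marker genes of the cell types were read on the same arrays. Over all genes, 5.80% were wholly higher in Tead1KO and 7.27% wholly lower, shares to set beside each count below. Of 8 beta cell markers, 4 were wholly lower in Tead1KO and 0 higher: Nkx6-1 differed by -0.95, Ucn3 by -0.95, Slc2a2 by -0.82 and Pdx1 by -0.66. The list mean of the beta cell markers given above did not overlap between the groups and was lower in Tead1KO. Ins2, near the top of the measured range at 15.69 in Tead1KO and 15.69 in Flox, differed by -0.01. Of 7 stromal markers, 2 were wholly higher in Tead1KO, Dcn (1.11) and Col1a2 (0.62), while Rgs5 differed by -0.62 with overlapping arrays. The stromal list mean was 7.63 to 8.08 in Tead1KO islets, against 7.51 to 7.75 in Flox islets, with overlap. None of these markers passed, and none of the stromal ones was within background in both groups. Their part in the receptor differences was not tested. Of 6 alpha cell, 3 delta cell and 2 PP cell markers, 0 were separate between the groups. Likewise 0 of 6 endothelial markers were separate, with list means of 7.46 to 7.92 in Tead1KO islets and 7.62 to 7.80 in Flox islets. Of 8 immune cell markers, Adgre1 was wholly higher (0.15) and Cd79a wholly lower (-0.85, limma adjusted p = 0.0725), and the list means were 6.20 to 6.90 in Tead1KO islets and 6.50 to 6.84 in Flox islets. Of 4 duct cell markers, Sox9 was wholly lower (-0.19) and Cftr was within background in both groups.

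**Figure D5:**
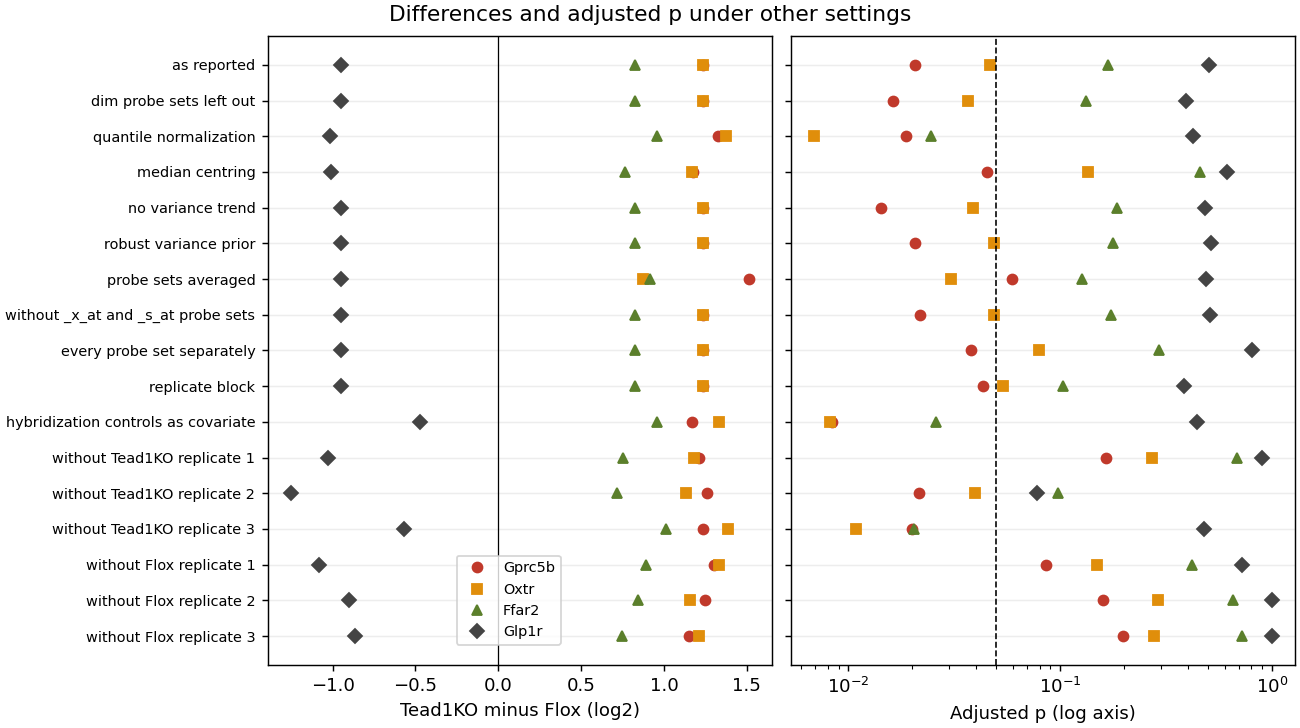
Difference Tead1KO minus Flox (log2, left) and adjusted p (right, log axis, dashed line at 0.05) of Gprc5b, Oxtr, Ffar2 and Glp1r as reported and under 16 other settings, 1 per line. The differences of all 4 keep their sign on every line; Gprc5b passed in 11 of the 16 settings, Oxtr in 9, Ffar2 in 3 and Glp1r in 0.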

How the data were processed

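RNA of islets was hybridized to 6 mouse Affymetrix arrays, 3 per group, with groups taken from the sample titles. The authors deposited 1 log2 signal per probe set and array, and the submitters' processing notes name Affymetrix Expression Console. Neither its version nor how it corrected background, normalized arrays or summarised probes is stated in those notes. The values, 2.75 to 15.71, gave the log2 scale.

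Of 45101 probe sets, 64 controls were left out. Of the remaining 45037, 34945 had 1 gene symbol in the platform annotation, 932 had several and 9160 were unnamed here. The brightest single-symbol probe set per gene gave 18193 genes, with no filter and no pseudocount. All 30 measured receptors matched a RefSeq gene by identifier. Groups were compared across all genes with limma 3.58.1 (R 4.3.3; lmFit, eBayes with trend, no covariate), checked on simulated data. An exact two-sided permutation test of 3 arrays against 3 cannot go below 0.1, so no receptor is called by it. The number of arrays limits the precision.

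Per-array values were due for receptors with an unadjusted p under 0.05 or separate groups, for Glp1r, Gipr, Sstr3, Cckar and Lgr4, (Ffar1, Gpr119 and Adra2a had no probe set) and for the 3 genes of smallest p in each list around them. Drd2, Oxt, the R-spondins, Gcg, Sst, Gnas, Gnaq, Plcb1, Plcb3, Prkcd and the single marker genes were added after their values were seen. Members, lists and tests were chosen with earlier results of these data known. Alternatives covered dim probe sets, normalization, the variance prior, the choice of probe sets, a replicate block, the hybridization controls and each array left out.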

Additional observations from a re-analysis of the deposited data

How the results depend on the processing

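The count of changed genes was 94 as reported, 151 with quantile normalization, 58 with median centring, 242 with the hybridization controls as a covariate, and 12 to 303 with 1 array left out (12, 303 and 177 without Tead1KO replicate 1, 2 or 3, and 20, 18 and 17 without Flox replicate 1, 2 or 3). The count of changed receptors was 2 as reported, 3 under quantile normalization or that covariate, and 1 with median centring, with probe sets averaged and with every probe set tested separately. It was 0 to 3 with 1 array left out: 0 without Tead1KO replicate 1 or Flox replicate 1, 2 or 3. With the replicate number as a block, 97 genes and 1 receptor changed, and Oxtr had an adjusted p of 0.0536. Deviations of same-numbered arrays correlated at 0.06, 0.30 and -0.17, and not every array correlated best with its own number. With 3 arrays per group, these correlations showed no consistent pairing but cannot settle whether the numbers pair the arrays. Receptors within background in both groups were 6, or 8 with the 25th percentile of gene means (4.90) as the limit.

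Of 24 receptors not within background in both groups, 14 kept their sign in every setting that gave a value. The other 10 changed sign, and none of these passed in any setting. Differences reversed with median centring for Adcyap1r1 (-0.022), Sstr2 (-0.022) and Gprc5c (-0.011). With probe sets averaged, those of Cnr1 (-0.18) and Cckbr (0.26) reversed. With the hybridization controls as a covariate, those of Vipr2 (0.044), Galr1 (0.071), Ptger3 (0.15), Drd2 (-0.12), Cckar (0.51) and Cckbr (0.048) reversed. With 1 array left out, differences ran between -0.027 and 0.11 for Adcyap1r1, -1.03 and 0.071 for Cckar, -0.25 and 0.17 for Cckbr, -0.33 and 0.024 for Galr1, -0.075 and 0.18 for Gprc5c, -0.40 and 0.071 for Ptger3, -0.063 and 0.17 for Sstr2, and -0.19 and 0.12 for Vipr2. The causes were not tested. Leaving out dim probe sets gave no value for the dim receptors.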
